A study of Mus musculus with 10 samples.

Results

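Cytosolic ribosomal protein genes were examined in bEnd.3 cells, an immortalised mouse brain endothelial line, after treatment with StcE. StcE is a bacterial protease that cuts mucin-domain glycoproteins, and the experiment asked how their loss alters the transcriptome of brain endothelial cells. Of 10 bulk RNA-seq samples, 5 were given saline (replicates 1, 2, 3, 4 and 5) and 5 were given 5 nM StcE (replicates 1, 2, 3, 5 and 6), and the study collected the cells after 16 h. Both groups were the same cell line in culture without a genetic change, and the sources used here do not say whether replicates came from separate cultures, so p-values measure the spread between these samples, which may be technical. The members were the rows whose gene name followed the mouse pattern for ribosomal proteins of the cytosolic ribosome (Rpl or Rps with a number and optionally a or x, Rplp0 to Rplp2, and Rpsa), which leaves out pseudogenes and the S6 kinases. There were 76 such genes, 30 for the small and 46 for the large subunit, among 27024 rows with a gene name, and all 76 were annotated as protein-coding.

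The cytosolic ribosome is built from a small subunit, which holds the mRNA and reads its codons, and a large subunit, which joins amino acids and lets the new chain out through the exit tunnel. Its protein genes are among the most highly transcribed of a growing cell. Their mRNAs carry a 5′ terminal oligopyrimidine tract (TOP), a run of C and T at the cap that lets mTOR signalling and LARP1 set the translation of the whole set together. In mammals most of these genes have left many processed pseudogenes, intronless copies inserted elsewhere in the genome, so that a read from a ribosomal protein mRNA often matches several places.

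The windows below show the pyrimidine run in 6 of these genes, as a feature that the choice by name did not use. Each holds 15 bases on either side of the annotated start, written 5′ to 3′ on the strand of the gene, from the RefSeq promoter table (GRCm38.p6). Capitals mark the longest run of at least 6 C or T bases that has a base no more than 5 from the start.
Rps6, chr4:86857353-86857382, minus strand: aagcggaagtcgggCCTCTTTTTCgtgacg
Rps10, chr17:27635230-27635259, minus strand: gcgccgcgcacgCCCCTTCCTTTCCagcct
Rps24, chr14:24490663-24490692, plus strand: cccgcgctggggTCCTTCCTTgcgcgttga
Rpl13a, chr7:45128731-45128760, minus strand: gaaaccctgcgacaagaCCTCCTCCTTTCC
Rpl38, chr11:114668565-114668594, plus strand: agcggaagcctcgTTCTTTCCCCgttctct
Rplp2, chr7:141447636-141447665, plus strand: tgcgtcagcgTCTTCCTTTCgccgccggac
The table held 66 starts for 56 of the 76 genes. A run of at least 6 consecutive C or T bases on the strand of the gene, with a base no more than 5 from the start, was found at 30 of these 66 starts (45.5%), against 20.2% of 32851 starts of all genes in the table. For runs of at least 10 the shares were 25.8% and 4.96%. These are matches of letters around annotated starts, which can lie some bases from the used ones, and a start without a match says only that the letters are not in this window.

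The second set of sequences shows how little separates 4 of these genes from an intronless copy. Each pair gives 60 bases of the coding sequence of the gene and the same bases of the copy, from the GENCODE vM21 transcripts of GRCm38, with the bases that differ in capitals and positions counted from 1 at the A of the start codon.
Rpl30 (chr15), coding bases 66 to 125: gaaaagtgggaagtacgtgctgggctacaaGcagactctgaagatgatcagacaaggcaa
Gm12191 (chr11:49678710-49679057), same bases: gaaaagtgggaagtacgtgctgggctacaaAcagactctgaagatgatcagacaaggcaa
Rpl34 (chr3), coding bases 102 to 161: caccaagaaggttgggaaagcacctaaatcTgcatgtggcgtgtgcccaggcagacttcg
Rpl34-ps1 (chr6:71124610-71124963), same bases: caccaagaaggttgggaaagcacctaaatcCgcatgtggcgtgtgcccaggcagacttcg
Rps10 (chr17), coding bases 379 to 438: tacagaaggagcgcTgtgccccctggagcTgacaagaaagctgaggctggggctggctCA
Rps10-ps2 (chr16:20822145-20822640), same bases: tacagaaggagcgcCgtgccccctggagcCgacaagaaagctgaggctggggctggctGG
Rpl29 (chr9), coding bases 42 to 101: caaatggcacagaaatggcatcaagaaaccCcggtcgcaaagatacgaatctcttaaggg
Gm13841 (chr5:115801677-115802159), same bases: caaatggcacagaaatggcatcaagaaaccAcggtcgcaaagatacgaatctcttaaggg
Over the 348 coding bases of Rpl30 the only difference from Gm12191 was G96A. Rpl34 differed from Rpl34-ps1 at T132C and C318G over 354 coding bases. Rpl29 differed from Gm13841 at C72A, C300T and T423C over 483, and Rps10 had 5 such differences from Rps10-ps2 in 496 aligned bases. In 62 of the 76 genes, stretches of at least 100 bases at 95% identity or more in another gene covered more than 50% of the mRNA. In all, 625 copies were annotated, 612 of them processed pseudogenes, and 454 had a row of their own in the table.

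The libraries held between 21864604 and 33147402 fragments, recovered from FPKM (fragments divided by gene length in kilobases and by library size) and gene lengths. All 10 endothelial markers were present (1 higher and 5 lower with StcE in limma, against 5.52% and 6.41% of all genes tested, whose part in the results was not tested), with Pecam1 at 264 to 312 FPKM and Cdh5 at 427 to 543, while the summed markers of mural cells, astrocytes, microglia and neurons reached at most 0.246 FPKM in any sample. The fibroblast markers summed to 1.19 to 1.51 FPKM, nearly all from Pdgfra, and Dcn was at 0 in all but 1 sample. These are bulk libraries scaled to each other, so the amount of ribosomal protein mRNA per cell was not measured, and fewer cells and less RNA per cell cannot be told apart.

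Ribosomal protein mRNAs stood at nearly the same levels with saline and with StcE in both subunits. In a limma fit over all 11062 genes with a mean of at least 1 FPKM, on log2(FPKM + 1) with Benjamini-Hochberg adjustment, 1 of the 76 genes passed an adjusted p of 0.05, against 11.9% of all genes tested. That gene was Rpl30, which was lower with StcE. The count was 0 of 30 in the small subunit and 1 of 46 in the large subunit. At an unadjusted p under 0.05 there was 1 small subunit gene, lower with StcE, and there were 2 higher and 2 lower large subunit genes, against 27.8% of all genes tested. limma voom on recovered fragments tested 72 of the 76 and called 1 of 27 small and 2 of 45 large subunit genes, all lower, against 14.3% of the 10445 genes it tested. The 4 it left out, Rps14, Rps18, Rps28 and Rpl17, did not give whole fragments in every sample. All 76 passed the filter on low values.

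The differences were small in both directions. The median log2 difference, StcE minus saline, was 0.0079 for the small subunit and 0.0031 for the large subunit, beside -0.00066 for all genes tested. Of the 76 genes, 41 lay above 0 and 35 below. The difference was under 0.1 on the log2 scale in 67 (88.2%), beside 73.4% of all genes tested, and the 95% confidence interval lay wholly within 0.2 of 0 in 63 (82.9%), beside 69.5%. In none of the 76 were the 2 groups free of overlap, which was so for 10.7% of all genes tested. Among the 417 other genes with a mean of at least 100 FPKM, 40 were called higher and 48 lower (21.1%), and their median spread between replicates was 0.046 on the log2 scale beside 0.0628 for the ribosomal protein genes. In these 417 the difference was under 0.1 in 75.1%. Their interval lay wholly within 0.2 of 0 in 79.6%, close to the 82.9% of the ribosomal protein genes.

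**Figure D1:**
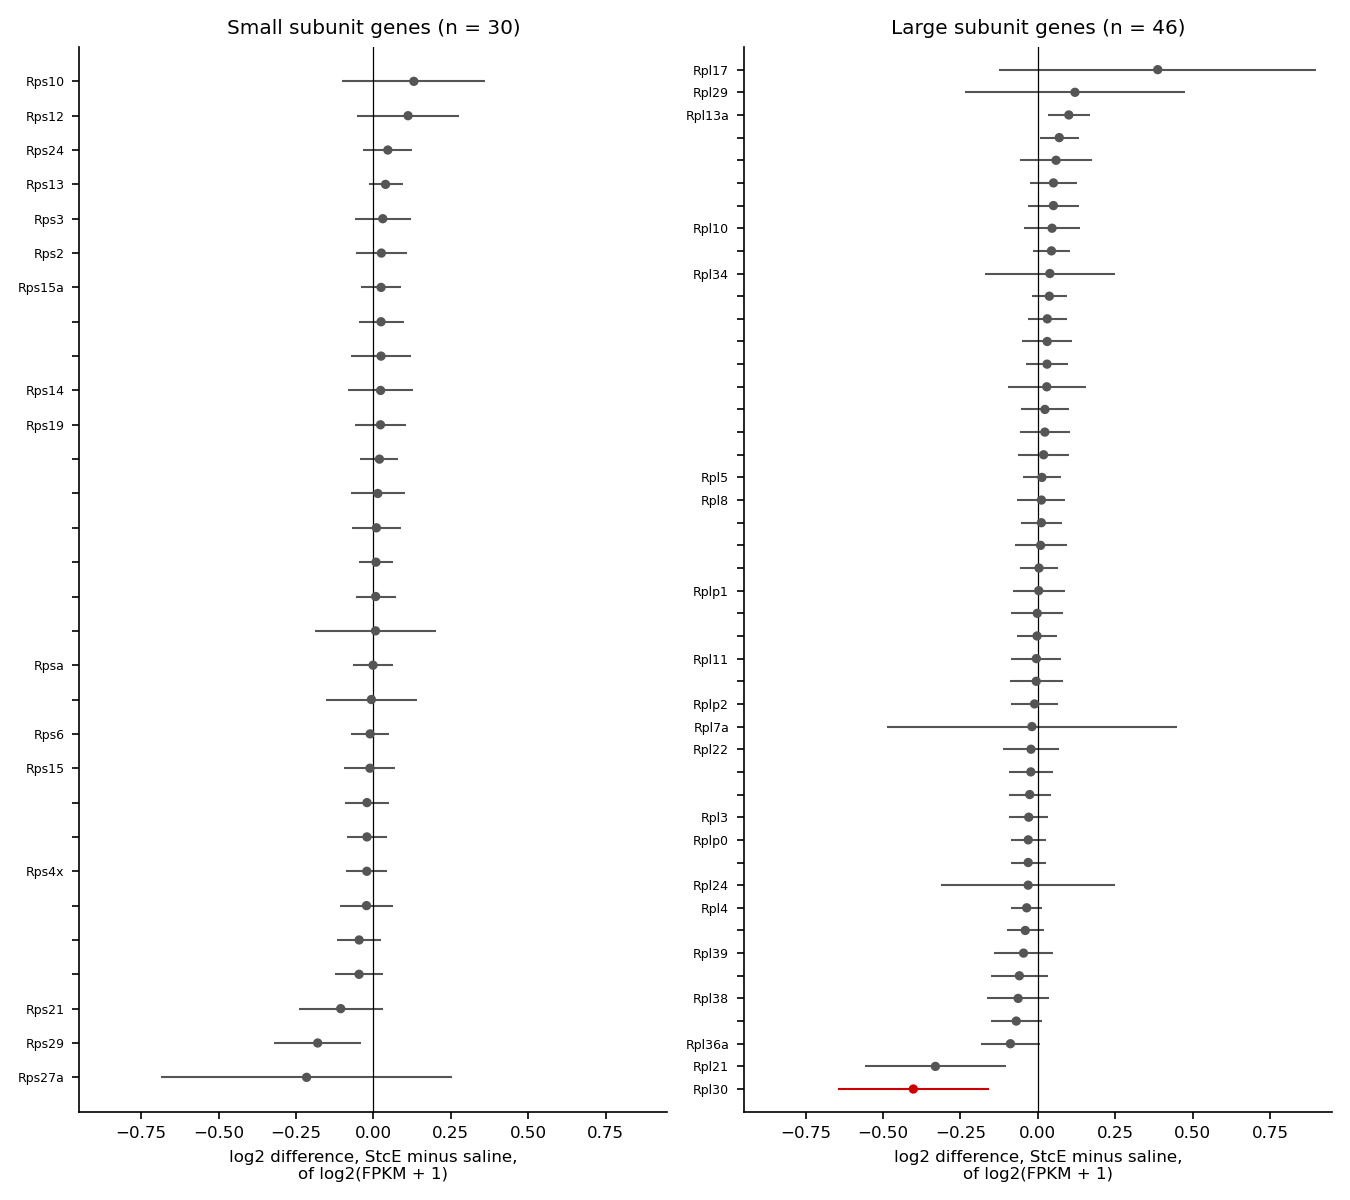
Difference between StcE and saline (log2 of FPKM + 1, x axis) for each small subunit gene (left) and large subunit gene (right), n = 5 samples a group, genes named in the text labelled, with the 95% confidence interval of the limma fit as a bar and Rpl30, the gene past the threshold, in red. Most points lie within 0.1 of 0, and the wide bars belong to Rpl17, Rpl7a, Rps27a, Rpl29, Rpl24 and Rpl30.

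Summed over the subunit, the small subunit genes reached 10493 ± 324 FPKM (SD, n = 5) with saline and 10462 ± 412 with StcE. The large subunit genes reached 15499 ± 380 and 15583 ± 622. The ratio of small to large was 0.677 ± 0.00602 with saline and 0.671 ± 0.00532 with StcE, with ranges of 0.67 to 0.685 and 0.664 to 0.676 that overlapped. From the gene lengths, the 76 genes took 4.61% ± 0.151 of all fragments with saline and 4.65% ± 0.205 with StcE, and with their copies 5.34% ± 0.172 and 5.399% ± 0.226.

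The genes of both subunits moved together from library to library, within each group. In saline replicate 5 the median deviation of a gene from its own mean over the 10 samples was 0.0558 on the log2 scale for the small and 0.0388 for the large subunit, and 64 of 76 genes lay above their mean. In StcE replicate 1 the medians were 0.0586 and 0.0621, with 66 genes above. At the other end, StcE replicate 6 stood at -0.073 and -0.0716 with 8 genes above, and saline replicate 1 at -0.0389 and -0.0493 with 7 genes above. Both groups thus held libraries at each end, and the median of all genes tested stayed between -0.00591 and 0.00375. The 14 genes with an mRNA of at most 500 bases departed from the others in saline replicate 2, where their median was 0.118 against 0.028 for the 62 longer ones, and the other way in StcE replicate 5, at -0.0504 against 0.00622.

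**Figure D2:**
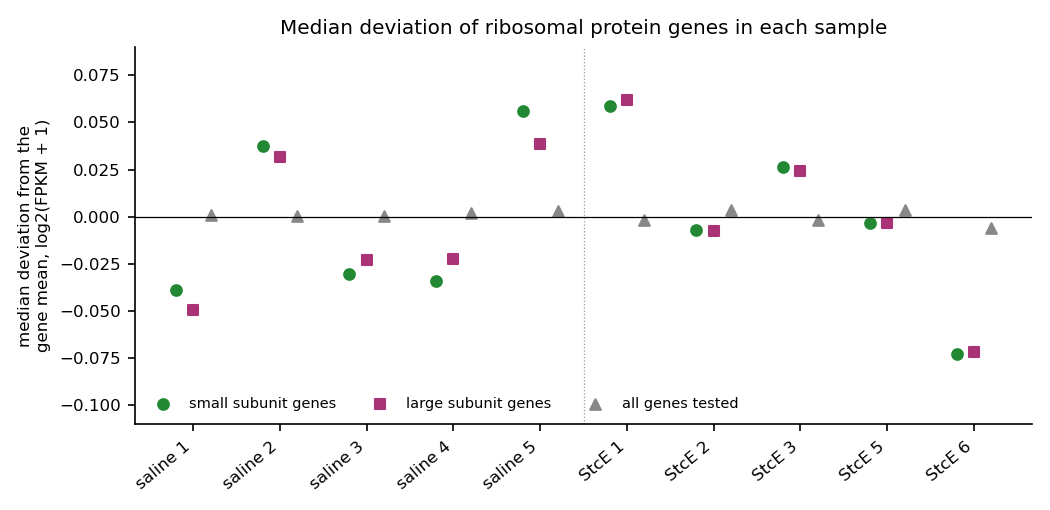
Median deviation of the genes from their own mean over the 10 samples (y axis, log2 of FPKM + 1) in each sample (x axis), for the 30 small subunit genes (circles), the 46 large subunit genes (squares) and all 11062 genes tested (triangles). The 2 subunits lie close together in every sample, high in saline replicate 5 and StcE replicate 1 and low in StcE replicate 6, while all genes stay near 0.

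Among the proteins of the small subunit, the most abundant mRNAs by deposited FPKM were those of Rps15 and Rps2, which lie near the decoding site and at the mRNA entry, and of Rpsa, which is also known as the laminin receptor precursor. Rps15 was at 1071 ± 34.4 FPKM with saline and 1063 ± 57 with StcE, Rps2 at 1045 ± 41.2 and 1064 ± 51.6, and Rpsa at 702 ± 17 and 702 ± 25.9 (SD, n = 5 each). Their log2 differences were -0.01, 0.03 and -0.0011, with intervals inside -0.09 to 0.11. Rps6, the substrate of the S6 kinases, was at 644 ± 19.7 and 640 ± 17.9, with a difference of -0.01 and a 95% interval of -0.07 to 0.05. Rps3, which lines the mRNA entry, stood at 246 ± 10.1 and 251.7 ± 14.5. The X-linked Rps4x was at 549 ± 15.4 with saline and 541 ± 19.6 with StcE.

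Several of these genes are mutated in Diamond-Blackfan anaemia, an inherited failure of red cell production. The one most often affected, Rps19, was at 129 ± 5.27 FPKM with saline and 131 ± 6.7 with StcE. Rps24 was at 86.5 ± 4.07 and 89.3 ± 3.42, a log2 difference of 0.05 (95% interval -0.03 to 0.13). Over the 14 genes of a list for this disease, from both subunits, the median difference was 0.011. In limma 0 passed the threshold (11.9% of all genes tested), 1 had an unadjusted p under 0.05 (27.8%), and voom called 1 of 13 (14.3%). The gene in question was Rps29, a small zinc-binding protein. Its values were 163, 218, 178, 178 and 168 FPKM in saline replicates 1 to 5 and 165, 157, 162, 155 and 156 in StcE replicates 1, 2, 3, 5 and 6. The StcE values lay at or below the lower end of saline, with 1 overlapping value, and saline replicate 2 stood alone at the top. The log2 difference was -0.18 (SE 0.0641), with an adjusted p of 0.0925 in limma and an exact two-sided permutation p of 0.0159, where 0.00794 is the smallest p that samples of this number can give. Without saline replicate 2 the difference was -0.11 with an adjusted p of 0.0563 in limma. Rps14, whose loss from 1 chromosome marks the 5q- syndrome, was at 406 ± 12 and 413 ± 31.4.

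The other outlying small subunit genes did not pass the test either. Rps21, another short mRNA, was at 294 ± 26.3 FPKM with saline and 273 ± 18.9 with StcE (log2 difference -0.11, 95% interval -0.24 to 0.03). Rps12, a protein of the beak of the subunit, was at 253 ± 24.2 and 274 ± 27.6 (0.11, -0.05 to 0.28). Among the least abundant by deposited value were Rps13 at 85.9 ± 1.36 and 88.3 ± 2.9, and Rps15a at 54.2 ± 1.7 and 55.2 ± 1.9. The lowest was Rps10, at 2.64 ± 0.556 and 2.98 ± 0.483, with between 112 and 269 fragments a library.

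Rps27a, which encodes ubiquitin fused to a ribosomal protein, had the most negative fitted difference of the small subunit (-0.22) through 1 library. Its FPKM were 224, 169, 245, 213 and 223 with saline and 236, 191, 230, 95.1 and 211 with StcE, the 95.1 being replicate 5. The interval reached from -0.69 to 0.25 and the adjusted p was 0.558, and without StcE replicate 5 the difference was 0.02. The copy Gm8430 read highest in that same library, at 119 FPKM, against 59.3 to 94.4 in the others, and Rps27a with its copies, added as fragments and divided by the length of the gene, stood at 129 there against 196 to 262 elsewhere.

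In the large subunit, the stalk proteins that recruit elongation factors were led by Rplp1, the most abundant of all 76 by deposited value and at rank 3 of the whole table. Rplp1 was at 2687 ± 72.4 FPKM with saline and 2694 ± 149 with StcE, with a 95% interval of -0.08 to 0.09 for the log2 difference. Rplp0, the base of the stalk and a common reference gene, was at 686 ± 16.8 and 671 ± 17.3 (-0.09 to 0.02). Rplp2 was at 226 ± 11.4 and 224 ± 6.5. None of the 3 passed the test in limma or voom or had an unadjusted p under 0.05. Of the genes tested, 11.9%, 14.3% and 27.8% did.

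The genes of the peptidyl transferase centre and the exit tunnel also had small differences. Rpl3, next to that centre, was at 165 ± 4.65 and 162 ± 5.72 FPKM, and Rpl8 at 907 ± 35.7 and 914 ± 38.5. Rpl4, whose loop lines the tunnel, was at 909 ± 12.1 with saline and 887 ± 21 with StcE, a log2 difference of -0.04 (SE 0.0229, adjusted p = 0.335 in limma, exact permutation p = 0.0476). Rpl39, deep in the tunnel, was at 138 ± 10.8 and 134 ± 1.61, and Rpl22, at its rim, at 50 ± 2.65 and 49.2 ± 2.42. Of 9 genes of the tunnel and its rim, 0 were called in limma, 0 of 8 in voom, and 0 had an unadjusted p under 0.05. Of 7 small subunit genes along the mRNA path 0 were called in limma, 0 of 5 in voom, and 0 had an unadjusted p under 0.05. The 4 X-linked members also gave 0 by each of these measures. Of the genes tested, 11.9% were called in limma, 14.3% in voom, and 27.8% had an unadjusted p under 0.05. At such shares, a count of 0 in sets this small says little.

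Rpl5 and Rpl11 carry the smallest ribosomal RNA into the subunit and, when free, bind MDM2 and so restrain the loss of p53. Rpl5 was at 231 ± 6.33 FPKM with saline and 233 ± 7.84 with StcE, and Rpl11 at 92.2 ± 3.42 and 91.9 ± 4.63. The 95% intervals of their log2 differences were -0.05 to 0.08 and -0.09 to 0.08. Rpl10, which joins late in maturation, was at 395 ± 18.4 and 408 ± 21.9. Rpl38, known for its part in translating Hox mRNAs, was at 204 ± 14.5 and 195 ± 8.15 (-0.16 to 0.04), and the X-linked Rpl36a was at 101 ± 7.17 and 94.7 ± 2.89 (-0.18 to 0.01).

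Rpl13a, which leaves the ribosome in a known mechanism of translational silencing after interferon-γ, had the smallest adjusted p of the genes with a positive difference. It read 24.4, 23.4, 24.9, 23.5 and 23.8 FPKM with saline and 26.2, 24.3, 27.2, 25.3 and 25.8 with StcE. Most StcE values lay above the saline range, and that of replicate 2 lay inside it. The log2 difference was 0.10 (SE 0.031, 95% interval 0.03 to 0.17), with an adjusted p of 0.0584 in limma and an exact permutation p of 0.0238. Without StcE replicate 2 it was 0.12 with an adjusted p of 0.0233. Other annotated genes, Gm45713 among them and not analysed here, overlap 35.4% of the exonic bases of Rpl13a on the same strand.

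Rpl30 (chr15:34440505-34443640, minus strand), a large subunit protein, was the gene past the threshold. It read 12.4, 17.5, 15, 13.4 and 14.6 FPKM with saline and 9.77, 9.45, 9.15, 13.7 and 12.2 with StcE, from 694 to 1445 fragments a library. StcE replicates 1, 2 and 3 lay below every saline value, while replicate 5 lay inside the saline range and replicate 6 just under it. The log2 difference was -0.40 (SE 0.111, 95% interval -0.65 to -0.16), with an adjusted p of 0.0379 in limma and an exact permutation p of 0.0317. The copy Gm12191, 1 base from Rpl30 over the coding sequence shown above, read 605 to 664 FPKM with saline and 617 to 683 with StcE. Rpl30 held 14.3% of the fragments on itself and its copies, and the sum of these gave a log2 difference of -0.03 (SE 0.0322, adjusted p = 0.568 in limma). The call was kept in 3 of the 10 fits that left out 1 library and in 10 of 24 alternatives in all, with adjusted p from 0.0113 to 0.568.

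Rpl21 (chr5), a large subunit protein, missed the threshold in the limma fit of all 10 samples. It was called in 2 of 24 alternatives, voom and the fit without StcE replicate 5. It read 40.3, 40.8, 33.6, 35.7 and 42.5 FPKM with saline and 26.9, 27.7, 27.4, 40.4 and 31 with StcE, again with StcE replicate 5 inside the saline range and the others below it. The difference was -0.33 (SE 0.104, adjusted p = 0.0617, exact permutation p = 0.0397), and without StcE replicate 5 it was -0.43 with an adjusted p of 0.00424. The copy Rpl21-ps15 (chrX) ran the other way, at 148 ± 11.2 with saline and 165 ± 13 with StcE (log2 difference 0.16, adjusted p = 0.114). Summed with its copies, Rpl21 differed by -0.09 (SE 0.0413, adjusted p = 0.184).

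Rpl17, a protein at the tunnel exit, had the largest fitted rise (0.39, SE 0.234, 95% interval -0.12 to 0.90, adjusted p = 0.313), from 2 libraries, and the rise was 0.18 without StcE replicate 1, 0.27 without StcE replicate 6 and 0.51 without StcE replicate 5. It read 106, 122, 106, 141 and 115 FPKM with saline and 273, 122, 111, 110 and 212 with StcE. In the 2 high libraries, StcE replicates 1 and 6, the copy Rpl17-ps10 (chr7) read 122 and 173, against 273 to 357 in the other 8. Summed with its copies, Rpl17 lay between 342 and 426 in all 10 samples, and the spread between replicates went from 0.443 to 0.0905 on the log2 scale.

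**Figure D3:**
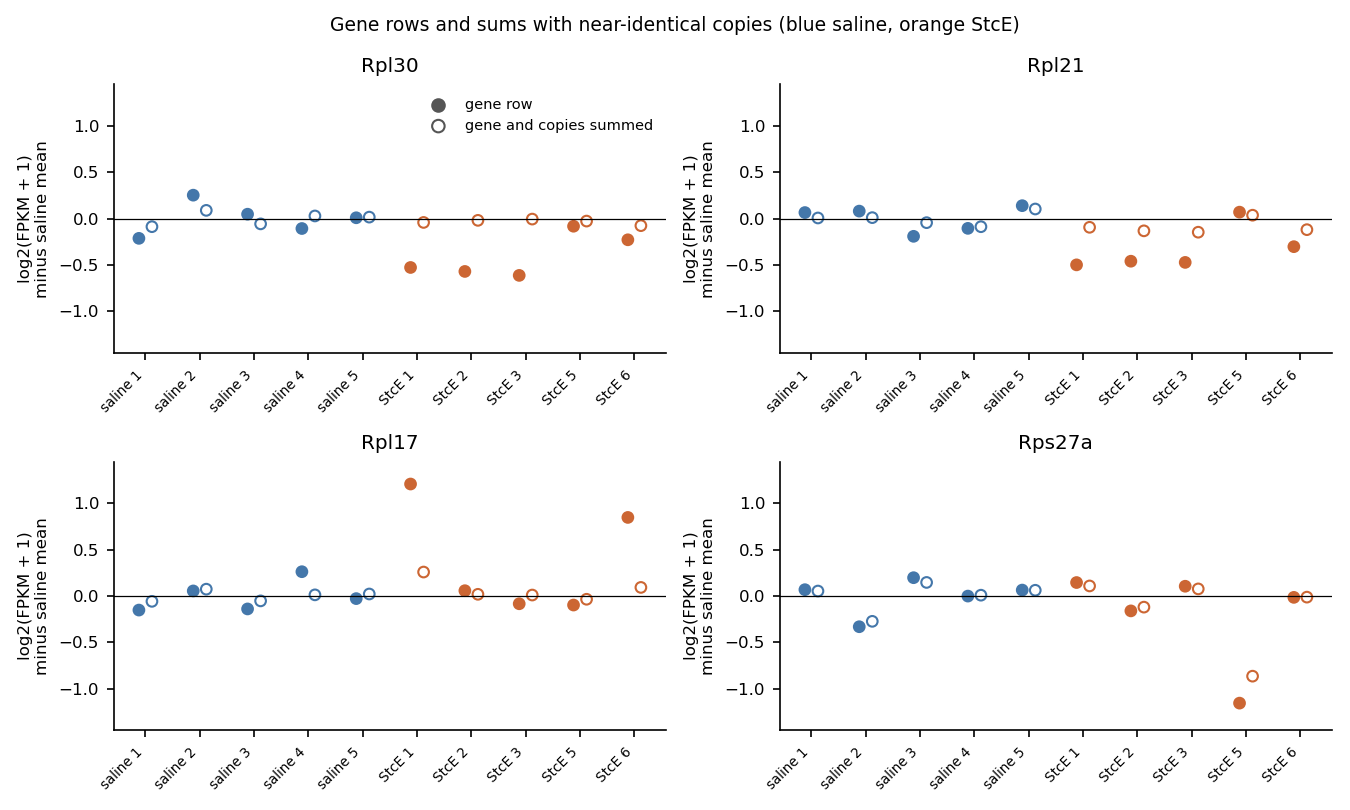
FPKM of Rpl30, Rpl21, Rpl17 and Rps27a in each sample (y axis, log2 of FPKM + 1 minus the saline mean of the same measure) for the row of the gene (filled) and for the gene summed with its copies (open), saline in blue and StcE in orange. The sums lie nearer the saline mean than the rows where Rpl30, Rpl21 and Rpl17 leave it, with Rpl17 still highest in StcE replicate 1 and Rpl21 lower in 4 StcE samples, and Rps27a stays low in StcE replicate 5 in both.

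Over all 76 genes, the sum with copies was steadier than the row in 48. The spread between replicates was above 0.2 on the log2 scale in 6 rows (Rps27a, Rpl7a, Rpl17, Rpl30, Rpl24 and Rpl29) and in 2 sums (Rps27a and Rpl7a), with medians of 0.0628 and 0.059. When each gene was replaced by its sum, 0 of 76 passed the threshold in limma, against 1369 of all 10862 genes in that fit. At an unadjusted p under 0.05 there were 4 of 76 (Rps29, Rps13, Rpl13a and Rpl29), beside 27.8% of all genes tested in the fit of the rows. The differences of the sums lay between -0.16 and 0.17. Of 200 copies with a row above the filter, 2 were called higher and 4 lower (3.00%), beside 11.9% of all genes tested. How the counting treated fragments that match several places is not given in the sources used here, and its part in these rows was not tested.

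Levels of the 76 genes spanned a wide range as deposited, from 2.28 FPKM for Rpl29 to 2691 for Rplp1, a ratio of 1179. The deposited scale divides by all exonic bases of a gene, including long isoforms that retain introns, such as 4483 bases for Rps3, whose mRNA has 1908. Per length of the mRNA, the SD of the log2 level over genes was 1.73 in place of 1.87. With copies summed and per length of the mRNA it was 1.14, and 57 of 76 genes lay within a factor of 2 of the median of 676. On that scale the small subunit had a median of 815 and the large subunit 613. The mRNA lengths are those of 1 chosen transcript a gene, and for Rps15a and Rps20 it has a long untranslated end (5130 and 3706 bases), which lowers their level on both scales.

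Some of the low rows had an abundant copy, while across the 76 genes of these libraries the log2 FPKM and the share of 100-base windows found elsewhere were weakly related (Pearson's r = -0.132, Spearman's rho = -0.174). Rpl34 was at 3.67 ± 0.767 FPKM with saline and 3.75 ± 0.288 with StcE, beside 711 ± 29.2 and 738 ± 37.9 for Rpl34-ps1. Rpl29 was at 2.16 ± 0.749 and 2.40 ± 0.631, beside 186 ± 30.1 and 212 ± 12.5 for Gm13841, and Rps10-ps2 was at 269 ± 17.1 and 280 ± 17.7. In Rpl34, Rps10 and Rpl29 the gene itself held 3.64%, 4.25% and 2.17% of the fragments on gene and copies. None of these genes or copies passed the test. Rpl24, a protein of a bridge between the subunits, stayed low on every scale, at 8.24 to 11.4 FPKM with saline and 7.14 to 12.7 with StcE as deposited and 32.1 with copies summed per mRNA length. The annotated gene Gm28037, not analysed here, overlaps 47% of its exonic bases on the same strand.

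**Figure D4:**
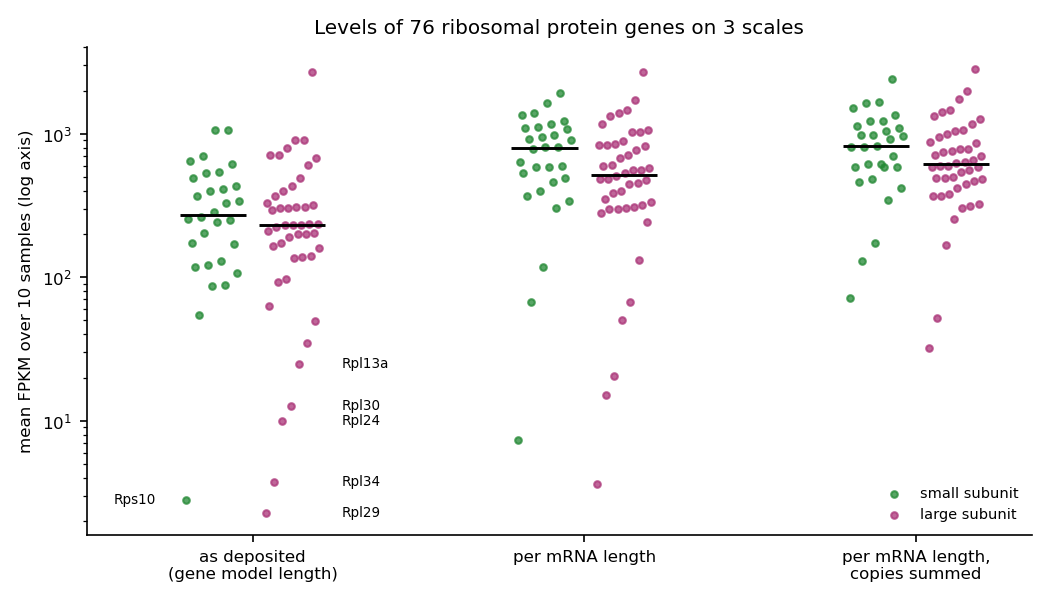
Mean level over the 10 samples of the 76 genes (y axis, FPKM on a log axis) as deposited, per mRNA length, and per mRNA length with copies summed, for the small (green) and large (purple) subunit, with medians as bars and the lowest genes of the deposited scale named. The range narrows from left to right, from a ratio of 1179 to one of 87.7 between the highest and lowest gene.

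Ribosomal proteins with other names also gave no call in limma. Of 13 on a list, 11 had a row and 8 passed the filter. In limma 0 of the 8 were called, against 11.9% of all genes tested. At an unadjusted p under 0.05 there was 1, higher with StcE, against 27.8%. voom called 1 of 7, higher with StcE, against 14.3% of the genes it tested. Fau, a fusion of a ubiquitin-like and a ribosomal protein, was at 618 ± 25.1 FPKM with saline and 618 ± 27 with StcE. Rps3a1 was at 174 ± 9.6 and 168 ± 6.5. Rack1, a scaffold on the small subunit, was at 244 ± 5.95 and 251 ± 7.43. Their adjusted p ranged from 0.379 to 0.991 in limma.

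Genes that build the ribosome gave a different count. Of 48 ribosome biogenesis factors, 14 were higher with StcE and 0 lower in limma, where 5.52% and 6.41% of all genes tested were called in these directions. Their median log2 difference was 0.07, with 42 of 48 above 0, and at an unadjusted p under 0.05 there were 26 higher and 0 lower, where 12.9% and 14.9% of all genes tested were. voom called 14 of 44 higher and 0 lower, against 6.33% and 7.98% of the genes it tested. Nop2, a methyltransferase of the large ribosomal RNA, rose from 58.9 ± 1.18 to 64.1 ± 0.757 FPKM (log2 difference 0.12, SE 0.0204, adjusted p = 0.00339). Nop56, a core protein of box C/D snoRNPs, rose from 48.1 ± 1.53 to 53.9 ± 1.63 (0.16, SE 0.0283, adjusted p = 0.00403), and Wdr43, a factor of the small subunit processome, from 40.1 ± 0.777 to 43.5 ± 0.569 (0.12, SE 0.0207, adjusted p = 0.0044). The count lay between 10 and 17 in 23 of the 24 alternatives and was 0 with the replicate number as a block. Whether this list differs from the ribosomal protein genes was not tested.

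In the lists of translation genes that follow, the share called in limma ran from 3.9% to 28.6%, beside 29.2% of the biogenesis factors. For the other counts given, 12.9% of all genes tested were higher and 14.9% lower at an unadjusted p under 0.05. In voom 6.33% of its genes were called higher and 7.98% lower. Of 77 genes for proteins of the mitochondrial ribosome, which translates the mitochondrial genome, 3 were higher and 0 lower in limma (13 and 1 at an unadjusted p under 0.05, 4 and 0 of 72 in voom), with a median difference of 0.05 and 60 of 77 above 0. That count was under the 5.52% of all genes tested, and it was 0 without StcE replicate 1 or 3 or saline replicate 1 or 4, 1 without saline replicate 3 and 5 without StcE replicate 2. Of 28 initiation factors 5 were higher and 1 lower (against 5.52% and 6.41% of all genes tested), among them Eif6, which keeps the subunits apart, from 97.9 ± 0.856 to 107 ± 3.69 FPKM (adjusted p = 0.00797), with 6 and 2 at an unadjusted p under 0.05. Eif6 is also on the list of biogenesis factors and is counted among the 14 called there. The 5 higher initiation factors became 2 without StcE replicate 3 or saline replicate 1 and 3 without StcE replicate 1 or 6 or saline replicate 3, 4 or 5. Of 7 genes named as elongation factors 1 was higher and 0 lower in limma (1 and 1 at an unadjusted p under 0.05, 1 and 1 in voom). The limma shares of all genes tested were 5.52% and 6.41%. The gene that rose was Eef1e1, listed for its name, which encodes an auxiliary protein of the multi-synthetase complex. Its level went from 8.70 ± 0.209 to 9.91 ± 0.257 FPKM (adjusted p = 0.00217 in limma). Of 14 other TOP transcripts, a list that also holds Eef1a1, Eef2 and Rack1, 3 were higher and 1 lower in limma (28.6%, against 11.9% of all genes tested). At an unadjusted p under 0.05 there were 4 higher and 3 lower, and voom called 3 higher and 2 lower of 14. The 3 higher in limma were the snoRNA hosts Gas5, Snhg5 and Snhg1, with log2 differences of 0.31, 0.21 and 0.26. The gene called lower in limma was Vim, for vimentin (-0.10, adjusted p = 0.0311). Among 14 regulators of TOP translation and ribosomal protein kinases, Myc was higher, from 43.9 ± 0.959 to 46.8 ± 1.08 (adjusted p = 0.0319). In limma 0 were lower, with 1 lower at an unadjusted p under 0.05 and 0 of 13 in voom. The share called in limma was 7.14%, against 11.9% of all genes tested.

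**Figure D5:**
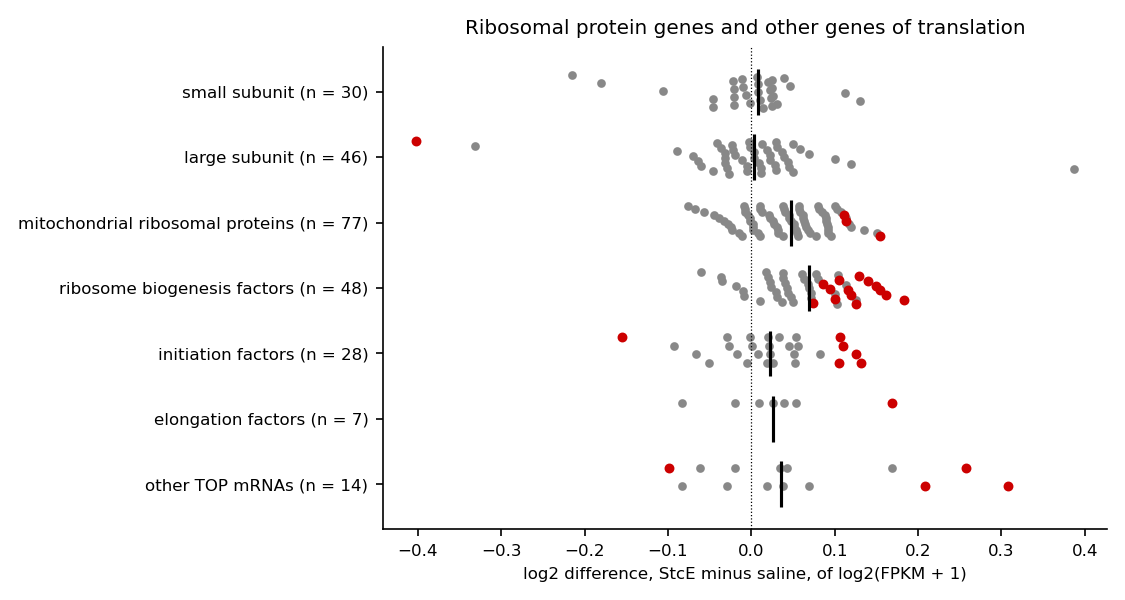
Difference between StcE and saline (x axis, log2 of FPKM + 1) of every tested gene of 7 sets (y axis), with genes past an adjusted p of 0.05 in red and the median of each set as a bar. The small and large subunit sets centre on 0 with Rpl30 in red at the left, and 14 of 48 ribosome biogenesis factors are red on the right. Eif6, Eef1a1 and Eef2 are shared between sets.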

How the data were processed

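RNA from 10 samples of bEnd.3 cells was sequenced as stranded, paired-end poly(A) libraries. The authors deposited FPKM per gene, made, per the submitters' processing notes, with HISAT2 2.0.5, featureCounts 1.5.0-p3 and DESeq2 1.32.0 on GRCm38. The annotation release and the treatment of reads that match several places are not given in the sources used here. Because FPKM does not show depth, fragments were recovered from it with the gene lengths of GENCODE vM21, with 96.6% of positive values whole within 0.05 fragment, and for 72 of 76 members in every sample (not Rps14, Rps18, Rpl17 and Rps28). Library totals were 21864604 to 33147402 fragments.

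Genes with a mean of at least 1 FPKM were fitted with limma 3.58.1 (R 4.3.3, eBayes with a mean trend) on log2(FPKM + 1), StcE against saline, with Benjamini-Hochberg adjustment over 11062 genes. Fold changes on this scale understate those of low genes. A further 22874 rows without a name were not used. Exact permutation tests were two-sided. limma voom on recovered fragments was an alternative. Copies were found with BLAST 2.17.0 at 95% identity over at least 100 bases, and their fragments were summed with those of the gene, an alternative chosen after seeing the data.

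On simulated data with 200 of 11062 genes changed, this fit recovered 0 at a log2 change of 0.1, 112 at 0.2 (8 false calls) and 190 at 0.5 (12 false calls). The members and lists were chosen with earlier results of these data known. Members were named by a rule: a fixed list of roles, those past the threshold, and in each subunit the 3 largest rises, the 3 largest falls and the 3 highest and 3 lowest levels. From other lists it took up to 3 genes past the threshold with the smallest adjusted p, and Rps3a1, Fau and Rack1. Some results are not reported here. Rpl7a, Vim, the markers, the copies and the overlapping genes were named after their values were seen.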

Additional observations from a re-analysis of the deposited data

Results flagged for a closer look

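Among 78 groups of 5 samples examined for a single sample far from the others, 3 stood out at Dixon's limit of 0.71, where chance gives about 1 in 20, or 3.9. Rps2 read 1115.6 FPKM in saline replicate 5, above 1015.2 to 1041.4 in the other saline samples. Rps29 read 218.11 FPKM in saline replicate 2, above 163.4 to 178.06 in the others. Rps4x read 507.2 FPKM in StcE replicate 6, below 544.14 to 555.51 in the others.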

How the results depend on the processing

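Over 24 alternatives, 862 refits of 36 named members gave 797 with the same direction and side of the threshold, 47 in which an uncalled gene changed sign (the largest at 0.0656 on the log2 scale), 14 in which Rpl30 lost its call, 4 in which a gene gained one, and 0 in which a called gene reversed. The number of lower large subunit genes was 0 with array weights, with trended and robust variances, with a mean of at least 0.1 FPKM, without a filter, with members summed with copies (chosen after seeing the data), with the replicate block and with its 8 samples unblocked, where the cause was not tested. With voom it was 2 of 45, and the small subunit then had 1 lower gene of 27. Over all genes tested, no filter gave 392 higher and 409 lower genes (801 in all), and the 8 samples of the blocked fit, fitted unblocked, gave 452 lower. With only members sharing under 25% of their windows (chosen after seeing the data), the log2 difference of the small-to-large ratio was 0.0071 in place of -0.0119. Sums over members without a near-identical copy are not given, since too few members are left.

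Leaving out 1 library at a time gave 793 to 1255 called genes (384 to 588 higher, 409 to 667 lower). It gave 0 to 2 lower and 0 to 1 higher large subunit genes, and 0 to 0 small subunit genes. The subunit medians ran from -0.00729 to 0.0281 (small) and -0.0123 to 0.0298 (large), the sums from -0.0233 to 0.0143 and -0.0129 to 0.0268, and the ratio from -0.0158 to -0.00754. The Rpl30 call was lost without StcE replicates 1, 2 or 3 or saline replicates 2, 3, 4 or 5, with adjusted p from 0.0527 to 0.0926 in limma.

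Replicate numbers 1, 2, 3 and 5 occur in both groups, and deviations of same-numbered samples correlated at -0.0966, -0.0225, -0.0265 and 0.0538. These values cannot tell whether same-numbered samples were handled together, which the sources used here do not say. The fit with the replicate block used these 8 samples and called 187 higher and 162 lower genes. That was 349 of all 11062 genes tested, against 885 in the same 8 samples unblocked and 1320 in all 10 samples. With so few calls over all genes, it called 0 ribosomal protein genes and 0 of 48 biogenesis factors. In simulated data 0 of 200 genes with a log2 change of 0.1 were recovered, although genes with changes near that size, such as Myc, were called in the data. The simulation changed 200 of 11062 genes, while 1320 were called in the data. The adjustment thus differs, and the simulated recovery cannot be carried over to the data.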
